A study of Mus musculus with 18 samples.

Results

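Surfactant and the alveolar type 2 cells that make it are represented here by 9 genes, Sftpa1, Sftpb, Sftpc, Sftpd, Abca3, Lamp3, Napsa, Lpcat1 and Slc34a2, chosen by name out of the 24346 gene symbols of the series. All 9 were found in every library, and all 9 passed the filter on low values in the lung, a mean of at least 1 FPKM. FPKM is the fragment count of a gene divided by its transcript length and by a scaling factor of the library. The libraries are poly(A) RNA of liver, intestine and lung from male C57BL/6 mice aged 9 weeks, taken 24 h after cecal ligation and puncture, an operation that perforates the bowel and causes peritonitis and sepsis. Control mice had the operation and no gas. H2 mice had the same operation and breathed 7% hydrogen without a break from just after it, for 24 h. There were 3 libraries per organ and treatment, 18 in all. Every mouse compared here was therefore septic, and unoperated or sham mice were not analysed here. The H2 mice shared 1 cage inside a gas box, so gas and housing cannot be told apart. The labels do not state that replicates are separate animals, nor which organs came from the same mouse, so the p-values measure only the spread between these libraries, which may in part be technical.

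Alveolar type 2 cells line the corners of the air sacs and secrete surfactant, a film of phospholipid and protein that lowers surface tension and keeps the air sacs open. The lipid, mostly phosphatidylcholine, is packed with the small hydrophobic proteins SP-B and SP-C into lamellar bodies, which are released by exocytosis, while the collectins SP-A and SP-D bind microbes and help to regulate the surfactant pool. Much of the used film is taken back up by type 2 cells or broken down by alveolar macrophages, and surfactant is often disturbed in septic lung injury.

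Promoter sequence was found for 6 of the 9 genes in RefSeq (assembly GRCm38.p6, which is mm10). The windows of 3 are shown because these genes span the proteins and the organelle described below: Sftpa1 and Sftpb encode secreted surfactant proteins, and Lamp3, a lamellar body membrane protein, had the smallest adjusted p of the 9. Each window is the 250 bases before the RefSeq start, 5′ to 3′ on the strand of the gene, at chr14:41131538-41131787 on the plus strand for Sftpa1, chr6:72304360-72304609 on the plus strand for Sftpb and chr16:19706366-19706615 on the minus strand for Lamp3. Capitals mark matches to 4 motifs searched on both strands: CTCAAG, the core bound by NKX2-1, the lung and thyroid homeobox factor; TGTTTAC, a forkhead core; TTGCNNAA, a C/EBP core; and TATAAA, the TATA box.
Sftpa1: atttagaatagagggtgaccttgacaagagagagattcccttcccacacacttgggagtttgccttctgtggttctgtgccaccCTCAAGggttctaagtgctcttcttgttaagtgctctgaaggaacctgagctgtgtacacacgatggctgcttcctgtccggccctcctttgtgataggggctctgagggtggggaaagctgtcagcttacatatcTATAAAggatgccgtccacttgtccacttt
Sftpb: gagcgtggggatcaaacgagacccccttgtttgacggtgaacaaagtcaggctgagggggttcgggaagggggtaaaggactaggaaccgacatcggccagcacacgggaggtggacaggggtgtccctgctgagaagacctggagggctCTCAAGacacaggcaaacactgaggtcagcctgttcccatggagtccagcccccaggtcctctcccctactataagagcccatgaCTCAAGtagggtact
Lamp3: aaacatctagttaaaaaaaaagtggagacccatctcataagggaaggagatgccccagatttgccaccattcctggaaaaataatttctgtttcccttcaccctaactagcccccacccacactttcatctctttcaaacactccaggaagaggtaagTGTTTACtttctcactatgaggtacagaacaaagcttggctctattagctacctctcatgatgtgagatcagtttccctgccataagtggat
CTCAAG was present once in the Sftpa1 window, at bases -166 to -161 from the start, and at -100 to -95 and -15 to -10 in the Sftpb window. It was in 2 of the 6 windows, and in 13.3% of all 32851 RefSeq windows of this length. TGTTTAC was in the Lamp3 window alone among the 6, at -92 to -86, and in 3.17% of all windows. TATAAA was in the Sftpa1 window alone, at -30 to -25, and in 12.4% of all windows. TTGCNNAA was in the Slc34a2 window, at -48 to -41, and in 9.56% of all windows, the match reading on both strands. The windows of Abca3 and Lpcat1, not shown, held none of the 4 motifs. No match overlapped another motif. A match describes the letters of the window, and binding was not measured.

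The gene with the highest level was Sftpc at 20779 to 33492 FPKM over the 6 lung libraries, followed by Sftpb at 1718 to 2661, Sftpa1 at 1712 to 2381 and Sftpd at 1501 to 2404, ranges that overlap among these 3. Slc34a2 came next at 411 to 559 FPKM, then Napsa at 259 to 349, Lamp3 at 131 to 237, Lpcat1 at 61.8 to 101 and Abca3 at 36.3 to 65.1. The ranges of Lpcat1 and Abca3 overlap, while those of Slc34a2, Napsa and Lamp3 do not overlap each other. FPKM is scaled by transcript length, so these levels can be set against each other. Together the 9 genes held 3.30% to 5.01% of the summed FPKM of a lung library, and Sftpc alone was 75.1% to 82.9% of that share.

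The lung libraries carried the lung's own markers. Nkx2-1 was at 43.2 to 62.6 FPKM in the lung and at most 0.175 elsewhere, Ager, the type 1 cell receptor RAGE, was at 809 to 1271 FPKM, and the hepatocyte gene Alb and the enterocyte gene Vil1 reached only 5.95 and 0.45. Scgb1a1, the secretory protein of airway club cells, held 16.4% to 20.4% of the summed FPKM of the lung libraries. Read depth per library is not given in the sources used here. From the steps between low FPKM values it was estimated at 9.73e+06 to 1.78e+07 fragments over the 18 libraries, assuming fragments of 200 bases. The 3 control lung libraries came to 1.14e+07, 1.43e+07 and 1.34e+07 fragments and the 3 H2 lung libraries to 1.52e+07, 1.78e+07 and 1.69e+07. Every H2 lung library thus had a higher estimate than every control. The steps recover the factor that divided the counts of a library, which is its read depth only if no further scaling was applied. The part of depth in the results was not tested. By these steps the scarcest value, Lpcat1 in control lung 1, stood for about 2673 fragments. Counting error is therefore small for these genes beside the spread between libraries.

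With H2, none of the 9 genes passed the test in the lung. Abca3 and Lamp3, 2 parts of the lamellar body, were higher in all 3 H2 libraries than in each control, by 1.40-fold and 1.46-fold. Sftpd, a secreted collectin, and Napsa, a protease also of lamellar bodies, were lower in each, to 0.769 and 0.838 of the control level. The lamellar body genes thus did not share a direction. These folds are on the log2(FPKM + 1) scale. All 4 intervals of the change excluded 0 before adjustment over genes. The adjusted p values of all 9 lay between 0.172 and 0.934 (limma, Benjamini and Hochberg). Over all 13424 genes tested in the lung, 1 was called higher (0.00745%) and 0 lower (0%) at an adjusted p under 0.05, while 3095 had an unadjusted p under 0.05. The 1 called gene, named after its values were seen, was the small RNA gene Mir6516. It was listed at 0 FPKM in all 3 controls and at 112 ± 16.8 with H2. It thus passed the filter through the H2 libraries alone, and what its value reflects in poly(A) libraries was not tested. Among the 9, 2 (22.2%) were higher in every H2 library, against 14.1% of all tested genes, and 2 (22.2%) were lower in every H2 library, against 15.9%, so in each direction the count lies within 1 gene of that background. The median change of the 9 was 0.13 on the log2 scale, with 7 of 9 above 0, beside -0.0036 over all tested genes. Without 1 library it was 0.06 (H2 lung 2 left out) to 0.25 (H2 lung 1 left out), with 0.21 without control lung 3. Rescaling to 1 sum without the 9 genes gave 0.31, but it also moved the median of all tested genes, to 0.15. The summed FPKM of a lung library was 824667 to 839264 in controls and 709826 to 777145 with H2. Quantile normalization moved the differences of Sftpa1, Sftpb, Sftpc and Slc34a2 to 0.34, 0.45, 0.36 and 0.31, none of them called. An exact permutation test of 3 against 3 libraries cannot go below a p of 0.1.

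**Figure D1:**
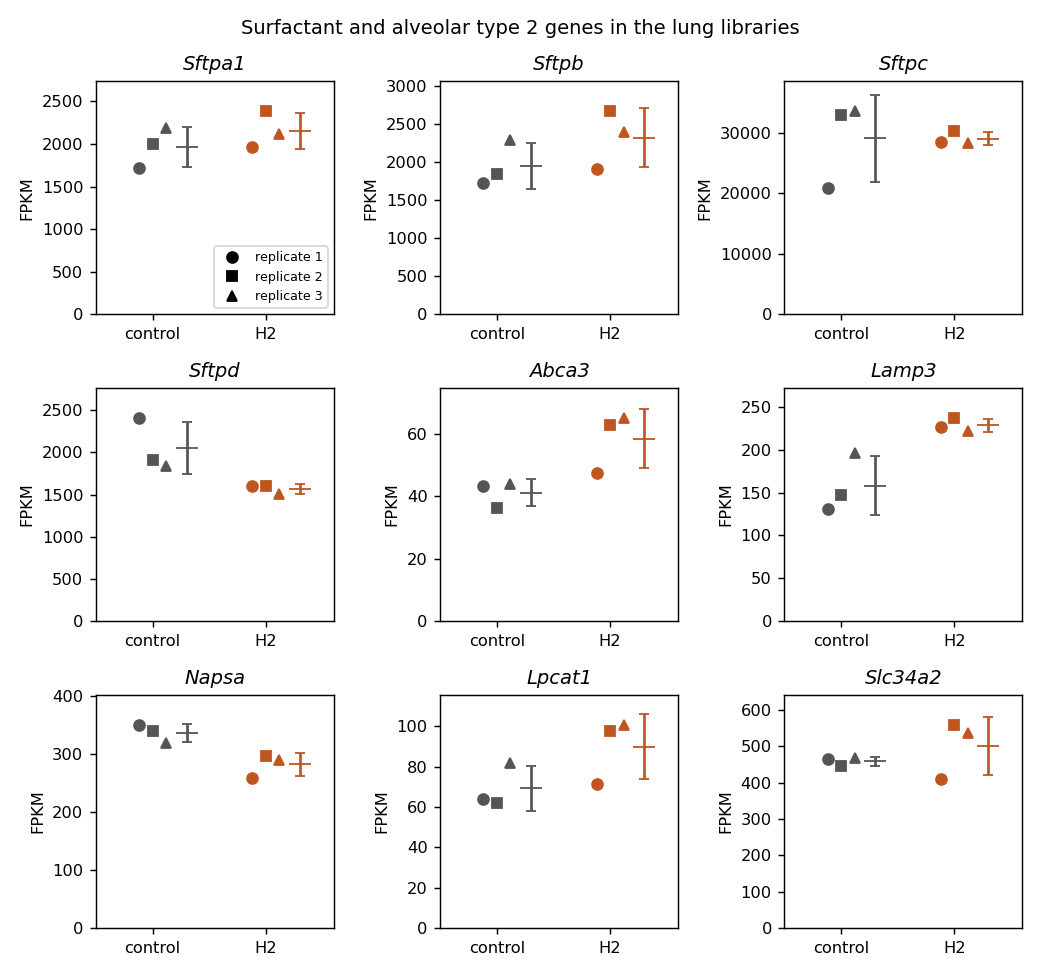
FPKM of each of the 9 genes in the lung, 1 panel per gene with an axis from 0; circles, squares and triangles are replicates 1, 2 and 3, and the bars beside them are the mean and the SD of 3 libraries. Abca3 and Lamp3 lie higher in all 3 H2 libraries than in any control, and Sftpd and Napsa lower.

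Among the hydrophobic proteins, Sftpc, at chr14:70520949-70524081 on the minus strand (mm10, GENCODE M21), encodes SP-C, the most type 2 specific of the surfactant proteins. It was at 20779, 32835 and 33492 FPKM in control lung 1, 2 and 3, and at 28413, 30280 and 28343 in H2 lung 1, 2 and 3. The controls lay on both sides of the H2 libraries, with control lung 1 the lowest of all 6 and the other controls the highest. The means were 29035 ± 7158 (SD, n = 3) in controls and 29012 ± 1099 with H2, and the change was 0.03 ± 0.20 (log2, SE; interval -0.44 to 0.50; adjusted p = 0.934, limma). Without control lung 1 the change of Sftpc was -0.19, so its direction rests on that library.

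Sftpb, at chr6:72304610-72314371 on the plus strand, encodes SP-B, whose loss is fatal at birth. Its control values were 1718, 1840 and 2289 FPKM, and its H2 values 1908, 2661 and 2388. The groups overlap at H2 lung 1, which lay below control lung 3. The means were 1949 ± 301 and 2319 ± 381 FPKM (SD, n = 3), and the change was 0.25 ± 0.17 (interval -0.15 to 0.65, adjusted p = 0.384, limma). In the ratio of Sftpb to Sftpc, examined after the values were seen, the libraries gave 0.0827, 0.0561 and 0.0683 in controls and 0.0672, 0.0879 and 0.0843 with H2, also overlapping.

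The collectin genes Sftpa1 and Sftpd lie 35761 bases apart on chromosome 14, at chr14:41131782-41136452 on the plus strand and chr14:41172214-41185149 on the minus strand, with Mbl1, a mannose-binding lectin gene, as the only protein-coding gene between them. Sftpa1 encodes SP-A, which with SP-D opsonises bacteria. It was at 1712, 2000 and 2185 FPKM in controls and 1959, 2381 and 2114 with H2, means of 1966 ± 239 and 2151 ± 214 (SD, n = 3). Its groups overlap, with a change of 0.13 ± 0.13 (interval -0.19 to 0.45, adjusted p = 0.543, limma).

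Sftpd, made by type 2 cells and also by airway club cells, pointed the other way. Its control values were 2404, 1912 and 1836 FPKM, and its H2 values 1600, 1596 and 1501, so no H2 library reached the lowest control. The H2 libraries lay close together, while the controls spread mainly through control lung 1. The means were 2051 ± 309 and 1566 ± 56.0 FPKM (SD, n = 3), and the change was -0.38 ± 0.13 (interval -0.69 to -0.07, adjusted p = 0.184, limma). Quantile normalization moved it to -0.09. Rescaling each library to 1 sum without the 9 genes moved it to -0.21, and the median of all tested genes to 0.15. In the ratio of Sftpd to Sftpa1, also examined after the values were seen, controls gave 1.40, 0.956 and 0.840 and H2 libraries 0.817, 0.670 and 0.710, without overlap but close at control lung 3. Mbl1, named for its place and not for its values, was at 2.39 ± 0.39 and 1.97 ± 0.19 FPKM, a change of -0.19.

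Napsa, at chr7:44572380-44586862 on the plus strand, encodes napsin A, an aspartic protease of lamellar bodies that helps to cut the SP-B precursor. Its values were 349, 339 and 319 FPKM in controls and 259, 297 and 289 with H2, and every H2 library lay below every control. The means were 336 ± 15.5 and 282 ± 20.2 FPKM (SD, n = 3), a change of -0.26 ± 0.10 (interval -0.50 to -0.01, adjusted p = 0.2099, limma). This was the smallest difference among the 4 genes whose groups do not overlap. Quantile normalization moved it to -0.05. Rescaling to 1 sum without the 9 genes moved it to -0.08, and the median of all tested genes to 0.15.

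Of the genes for the lipid and the lamellar body, Abca3, at chr17:24351950-24410201 on the plus strand, encodes the pump that loads phospholipid into lamellar bodies. It was at 43.3, 36.3 and 44.1 FPKM in controls and 47.6, 63.0 and 65.1 with H2. H2 lung 1 lay only just above the highest control, and the other H2 libraries stood well clear of it. The means were 41.2 ± 4.33 and 58.5 ± 9.53 FPKM (SD, n = 3), a change of 0.49 ± 0.15 (interval 0.12 to 0.85, adjusted p = 0.173, limma). D330041H03Rik, a transcript on the opposite strand that overlaps Abca3, was at 70.6 ± 17.2 and 76.4 ± 3.61 FPKM (SD, n = 3), above Abca3 itself, with a change of 0.14. It is named for its place and not for its values. Whether counting used strand is not given in the sources used here, so reads of the 2 cannot be told apart with certainty. Napsa and Slc34a2 also have an annotated antisense gene, which the files do not list.

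Lamp3, at chr16:19653378-19706375 on the minus strand, encodes DC-LAMP, a glycoprotein of the lamellar body membrane, and had the largest difference of the 9 over all libraries. Abca3 was larger without control lung 1 (0.52 against 0.42), without H2 lung 1 (0.63 against 0.55) and with array weights (0.68 against 0.64). Control values were 131, 147 and 197 FPKM, and H2 values 226, 237 and 222. All H2 libraries lay above all controls, and they lay within a narrow range. The means were 158 ± 34.2 and 228 ± 7.60 FPKM (SD, n = 3), a change of 0.55 ± 0.16 (interval 0.17 to 0.93, adjusted p = 0.172, limma). Control lung 3 was the highest of its group. Without it Lamp3 alone of the 9 passed the test, at 0.71 ± 0.11 and an adjusted p of 0.0113 (limma), but 3295 genes, 24.5% of those tested, did so too, against 1 with all libraries. With all 18 libraries sharing 1 estimate of the spread, Lamp3 was again the only one of the 9 called, at 0.55 ± 0.12 and an adjusted p of 0.0259 (limma), beside 535 of 13362 genes (4%).

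Lpcat1, at chr13:73467197-73516422 on the plus strand, encodes the acyltransferase that makes the saturated phosphatidylcholine of surfactant. Its control values were 63.8, 61.8 and 81.7 FPKM, and its H2 values 71.2, 97.5 and 101. The groups overlap because H2 lung 1 lay below control lung 3. The means were 69.1 ± 11 and 89.8 ± 16.1 FPKM (SD, n = 3), a change of 0.37 ± 0.18 (interval -0.05 to 0.79, adjusted p = 0.255, limma).

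Slc34a2, at chr5:53038081-53071664 on the plus strand, encodes the sodium-phosphate cotransporter NaPi-IIb, which takes up the phosphate freed from used surfactant. It was at 466, 445 and 467 FPKM in controls and 411, 559 and 537 with H2. H2 lung 1 was the lowest of the 6 libraries and the other H2 libraries were the highest, and the controls were nearly equal. The means were 459 ± 12.3 and 502 ± 79.8 FPKM (SD, n = 3), a change of 0.12 ± 0.14 (interval -0.21 to 0.45, adjusted p = 0.609, limma).

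**Figure D2:**
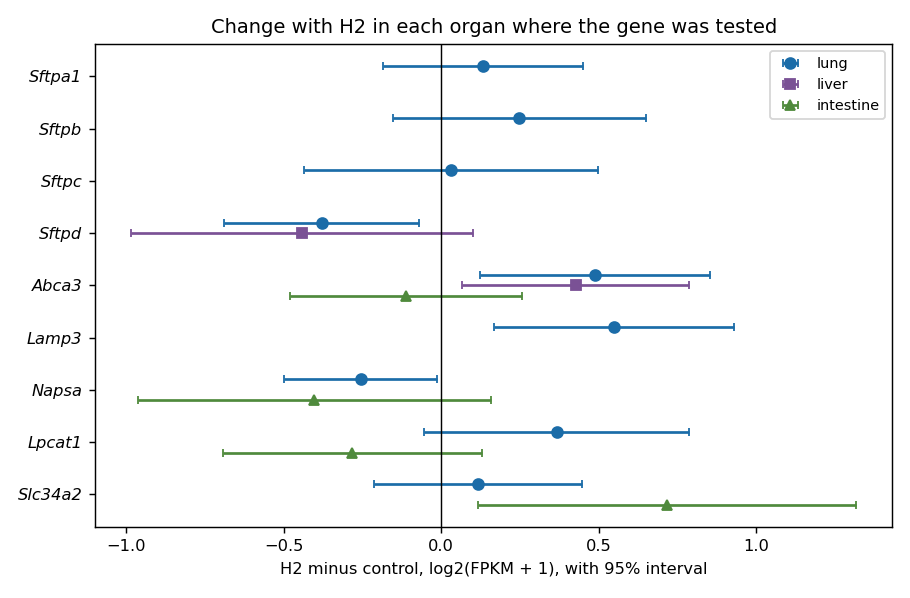
Difference with H2 for each of the 9 genes (H2 minus control, log2 of FPKM + 1) in each organ where it was tested, with circles for lung, squares for liver and triangles for intestine and bars for the 95% interval before adjustment. In the lung the intervals of Abca3, Lamp3, Sftpd and Napsa leave out 0 and the other 5 include it, and Lamp3 lies farthest right of the lung points at 0.55.

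The 9 genes did not move as a block across the 6 lung libraries. Pearson correlations of log2(FPKM + 1), given as a description over 6 libraries that share their treatment groups, ran from 0.94 for Sftpb with Lpcat1, 0.93 for Sftpa1 with Sftpb and 0.92 for Abca3 with Lpcat1 down to -0.92 for Sftpd with Lamp3. Sftpd and Napsa correlated with each other at 0.83, and Napsa with Lamp3 at -0.86. In the Napsa to Lamp3 ratio, examined after the values were seen, controls gave 2.67, 2.31 and 1.62 and H2 libraries 1.14, 1.25 and 1.30. These could not overlap, because Napsa was lower and Lamp3 higher in every H2 library. The ratio therefore restates the values of the 2 genes and adds no separation of its own. Averaged as standardized levels, the 9 genes gave -0.55, -0.33 and 0.24 in controls and -0.48, 0.72 and 0.39 with H2. H2 lung 1 thus stood with the low controls, and control lung 3 with the high H2 libraries, so the common level did not separate the groups.

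**Figure D3:**
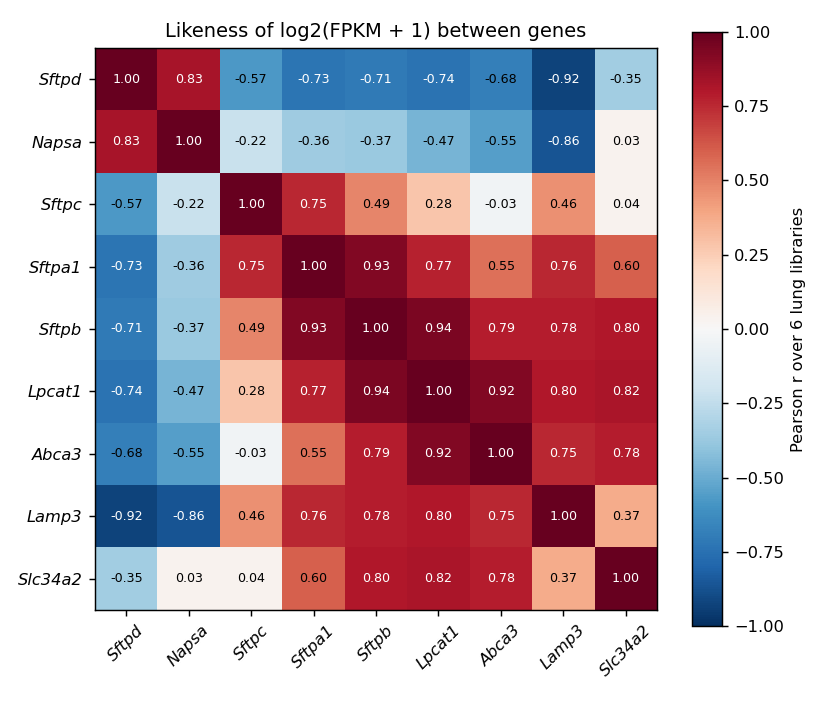
Pearson correlation of each pair of the 9 genes over the 6 lung libraries, as a grid with 1 row and 1 column per gene and color for the value. Sftpa1, Sftpb, Abca3, Lamp3, Lpcat1 and Slc34a2 share positive values, and Sftpd and Napsa share positive values with each other and negative ones with Lamp3.

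The genes whose pattern over the 6 lung libraries was most like the mean of the 9, among those with at least 5 FPKM, were Anxa11 (r = 0.98), Pcyt1a (0.98), Txnip (0.98), R3hcc1l (0.97), Cmtm4 (0.96) and Rufy1 (0.96). They were picked as the highest of very many genes over only 6 libraries, so the choice itself gives high r. The mean also joins genes that ran opposite, such as Sftpd and Lamp3. Pcyt1a encodes the rate-limiting enzyme of phosphatidylcholine synthesis, and no link to the 9 genes was tested. The H2 changes of the 6 were small, from 0.03 for R3hcc1l to 0.27 for Cmtm4, none called.

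The lists of related genes gave no call in the lung either, so they are described by values, and counts of genes higher or lower in every H2 library stand against 14.1% and 15.9% of all tested genes. Of other type 2 markers, 19 of 20 were tested and 0 called, with a median change of 0.16. Of the 19, 4 were higher and 1 lower in every H2 library, against 14.1% and 15.9% of all tested genes. The smallest p values were those of Hc, complement C5, at 0.79 ± 0.27 (adjusted p = 0.182, limma), Cxcl15, lungkine, at 0.64 ± 0.22 (0.186), and Acoxl at 0.74 ± 0.27 (0.196). Of 15 transcription factors of type 2 cells, 0 were called, 5 were higher and 0 lower in every H2 library (14.1% and 15.9% of all tested genes), and the median was 0.16. Klf5 was at 0.55 ± 0.16 (adjusted p = 0.172, limma), Grhl2, a regulator of epithelial junctions, at 0.31 ± 0.10 (0.178) and Elf5 at 0.35 ± 0.13 (0.201).

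Of 20 genes of surfactant phospholipid synthesis, 0 were called, 1 was higher and 0 lower in every H2 library (14.1% and 15.9% of all tested genes), and the median was 0.02. The desaturase genes Scd2 and Scd1 pointed apart, at 0.69 ± 0.21 (adjusted p = 0.172, limma) and -1.02 ± 0.47 (0.241), and Me1, malic enzyme, was at -0.30 ± 0.15 (0.267). Of 16 genes of protein processing, lamellar body traffic and secretion, 0 were called and the median was 0.02. Of the 16, 2 were higher and 1 lower in every H2 library, against the same 14.1% and 15.9%. Anxa7, an annexin linked to membrane fusion, was at -0.44 ± 0.14 (adjusted p = 0.173, limma), Hps4, a lysosome-related organelle gene, at 0.25 ± 0.10 (0.214), and P2ry2, the ATP receptor that triggers surfactant release, at -1.29 ± 0.54 (0.216).

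Of 12 genes of surfactant clearance by alveolar macrophages, 0 were called, with a median of -0.18. Msr1, a scavenger receptor, was at -1.69 ± 0.45 (adjusted p = 0.172, limma), Csf2rb2 at -0.80 ± 0.32 (0.206) and Lipa, lysosomal acid lipase, at 0.29 ± 0.12 (0.217). Summed FPKM of this list was 198 to 358 in controls and 183 to 198 with H2. Of 10 genes of phosphate, sodium and fluid transport, 0 were called, with a median of -0.17. Slc20a2, a phosphate transporter, was at -0.64 ± 0.18 (adjusted p = 0.172, limma), and Atp1b1, the beta subunit of the sodium pump, was at -0.29 ± 0.16 (0.297). Of 13 tested relatives of the 9 genes (other collectins, acyltransferases, LAMP proteins, ABC transporters and the protease cathepsin D), 0 were called and the median was -0.10, with Abca5 at 0.69 ± 0.18, Abca2 at 0.46 ± 0.14 and Colec12 at 0.52 ± 0.18 (adjusted p = 0.172, 0.172 and 0.186, limma).

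**Figure D4:**
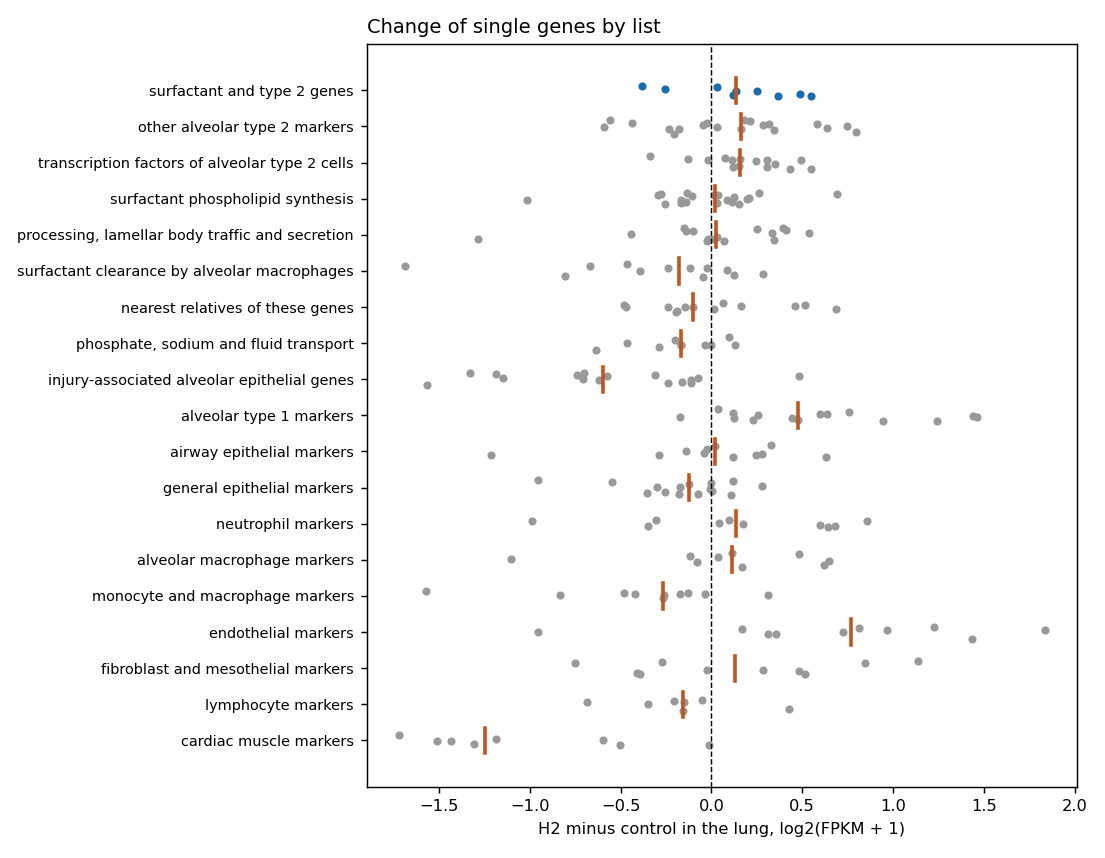
Changes of the tested genes of each list in the lung (log2 of FPKM + 1, H2 minus control), 1 row per list with its genes as points and its median as a line. The medians of the surfactant and related lists lie near 0. Those of endothelial markers and alveolar type 1 markers lie at 0.77 and 0.47. The median of injury-associated genes lies at -0.60 and that of cardiac muscle markers at -1.25.

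Markers of other lung cells, none of them called, are given beside these values, and their part in the values of the 9 genes was not tested. Of 15 type 1 markers, 7 were higher and 0 lower in every H2 library (14.1% and 15.9% of all tested genes), the median was 0.47, and the summed FPKM was 2433 to 3373 in controls and 3783 to 4331 with H2, with Ager at 0.44 ± 0.11, Sema3e at 0.60 ± 0.16 and Emp2 at 0.63 ± 0.19 (adjusted p = 0.172 each, limma). Of 16 injury-associated alveolar genes, 8 were lower and 0 higher in every H2 library (15.9% and 14.1% of all tested genes), with Clu at -0.62 ± 0.17, Sfn at -1.56 ± 0.46 and Nupr1 at -0.71 ± 0.23 (adjusted p = 0.172, 0.172 and 0.175, limma). Their summed FPKM was 6236 to 15585 in controls and 4186 to 5232 with H2, most of it from Lcn2, named after its values were seen, at 7402 ± 4641 and 2993 ± 509 FPKM (SD, n = 3). The median of endothelial markers was 0.77 (summed FPKM 1506 to 1593 in controls, 1468 to 2034 with H2), and that of fibroblast and mesothelial markers 0.13 (1019 to 2095 and 2130 to 2457). Most of the latter sum came from Inmt, also named after its values were seen, at 939 ± 585 and 1775 ± 186 FPKM (SD, n = 3), while 5 of the 10 genes had a difference above 0. The medians of neutrophil, alveolar macrophage, monocyte and lymphocyte markers were 0.13, 0.11, -0.26 and -0.16, and those of airway and general epithelial markers 0.02 and -0.12.

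Markers of cardiac muscle, which in mice also sheathes the pulmonary veins, summed to 633 to 737 FPKM in control lungs and 174 to 468 in H2 lungs, with 6 of 8 lower in every H2 library, against 15.9% of all tested genes. In a bulk sample fewer type 2 cells and less RNA per type 2 cell cannot be told apart, and the share of the sample taken by other tissue enters the same value.

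In the liver and the intestine the same genes served as a background. In the liver 2 of the 9 passed the filter, Sftpd and Abca3, and 0 were called, beside 2 of 10041 genes (0.0199%). Abca3 was at 3.20, 4.09 and 2.52 FPKM in controls and 4.84, 4.61 and 4.58 with H2, higher in every H2 library as were 12.2% of all genes tested there. Its change was 0.43 ± 0.15 (interval 0.07 to 0.79, adjusted p = 0.196, limma), and that of Sftpd was -0.44 ± 0.23 (0.305).

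In the intestine 4 of the 9 passed the filter and 0 were called, beside 1 of 11910 genes (0.0084%). Slc34a2, which is also the phosphate transporter of the small bowel, was at 122, 68.5 and 107 FPKM in controls and 138, 192 and 153 with H2. It was higher in every H2 library, as were 10.6% of all genes tested there, with a difference of 0.72 ± 0.26 (interval 0.12 to 1.32, adjusted p = 0.374, limma). Abca3, Napsa and Lpcat1 were at -0.11 ± 0.16, -0.40 ± 0.24 and -0.28 ± 0.18 (adjusted p = 0.765, 0.490 and 0.506, limma).

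**Figure D5:**
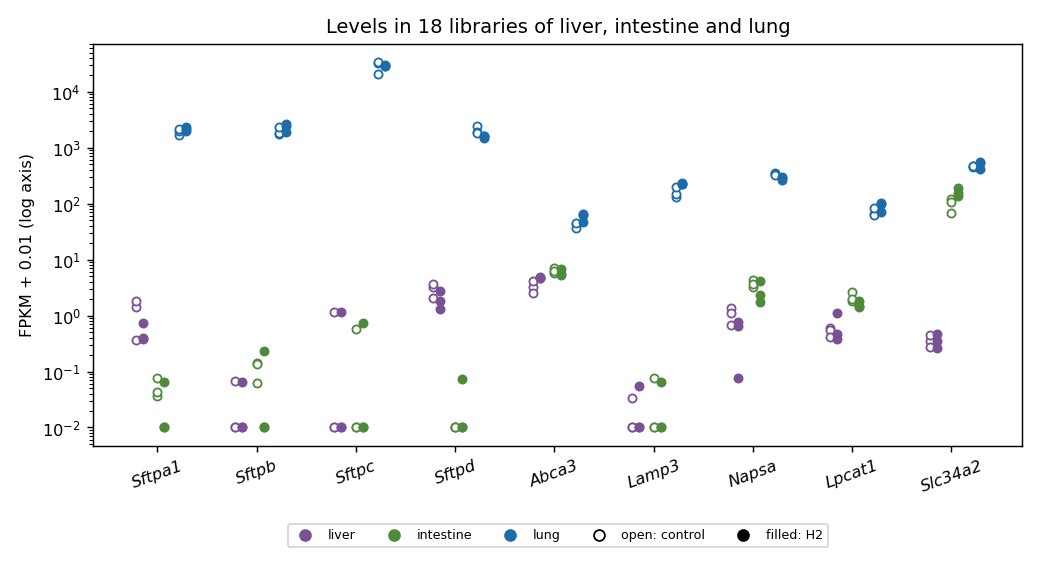
FPKM of the 9 genes in all 18 libraries on a log axis with a small constant added, so that zeros lie at the foot; color gives the organ, open points are controls and filled points H2. Every gene is highest in the lung, Sftpd reaches at most 3.64 FPKM in the liver, and Slc34a2 reaches 192 FPKM in the intestine.

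Traces of Sftpc outside the lung were listed in replicate 1 alone. It was listed at 1.13 and 1.17 FPKM in control and H2 liver 1 and at 0.562 and 0.727 in control and H2 intestine 1, and at 0 in the other libraries of both organs. Where these traces came from was not tested. Sftpb and Lamp3 in the liver were above 0 in replicate 1 alone, Sftpb at 0.058 and 0.054 FPKM and Lamp3 at 0.024 and 0.044. So were Sftpb, Sftpa1 and Sftpd in the H2 intestine, at 0.225, 0.056 and 0.064. Other values did not follow that pattern. In the control intestine Sftpb was above 0 in all 3 libraries, at 0.130, 0.053 and 0.128 FPKM. Sftpa1 was too, at 0.065, 0.027 and 0.034, while Sftpd was at 0. Lamp3 in the intestine was above 0 in control 2 and H2 3 alone, at 0.065 and 0.055. In the liver Sftpa1 and Sftpd were above 0 in every library. Lung levels of Sftpc, at 20779 FPKM and above, were far over these traces.

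The difference of the H2 change between organs was tested with all 18 libraries in 1 fit, and it compares organs only for genes above the filter in both. For lung minus liver 32 of 13362 genes were called (0.239%) and neither of the 2 genes above the filter in both organs, with Abca3 at 0.06 ± 0.22 (adjusted p = 0.958, limma) and Sftpd at 0.06 ± 0.24 (0.964). For lung minus intestine 166 genes were called (1.24%) and none of the 4 above the filter in both, with Abca3 at 0.60 ± 0.22 (adjusted p = 0.147, limma), Lpcat1 at 0.65 ± 0.25 (0.171), Napsa at 0.15 ± 0.30 (0.832) and Slc34a2 at -0.60 ± 0.26 (0.219). The other genes, Lamp3 among them, were near 0 outside the lung, so their difference between organs would restate the lung value and is not given. Weighting the lung libraries by their estimated quality raised 6 of the 9 past the threshold, and 53.2% of all genes with them. That fit stopped before it converged, with a weight of 14.1 on control lung 2 and of 0.201 to 1.69 on the others.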

How the data were processed

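Per the labels, the RNA came from a miRNeasy Micro kit and was prepared with a stranded TruSeq mRNA kit. The deposited values are FPKM computed by the authors, 1 column per library. The unit follows from the Cufflinks step, and the submitters' processing notes list Cufflinks 2.2.1 and TopHat2 2.0.13, with Bowtie2 2.2.3, SAMtools 0.1.19 and build mm10. The annotation and options are not given in the sources used here. Median-of-ratios size factors of the lung libraries were 0.999 to 1.003. The deposited lung values thus already lay on a common scale by that measure, whatever scaling the authors used. In 1 file an extra column repeats another library (1 per-sample column not used). Groups follow the source names. The descriptions of H2 replicates 2 and 3 number the gas differently, which was read as a slip.

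Each organ was fitted alone with limma 3.58.1 in R 4.3.3 on log2(FPKM + 1), with an empirical Bayes trend, two-sided, over genes with a mean of at least 1 FPKM. The differences between organs used all 18 libraries. Benjamini and Hochberg adjustment ran over every tested gene, and an adjusted p under 0.05 counted as a call. The fit was tested on simulated data. The 9 genes and the lists were chosen with earlier results of these data known. All 9 are named, with up to 3 genes of smallest p per list without a call. The values of 1 gene that this rule names are not reported here. Of 245 list symbols, 242 were found. FPKM give no counts, so precision rests on the spread of 3 libraries per group. Alternatives were other pseudocounts, filters, scalings and fits, a replicate block and leaving out each library.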

Additional observations from a re-analysis of the deposited data

How the results depend on the processing

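Under each of 18 alternatives, the lung differences of Sftpa1, Sftpb, Sftpd, Abca3, Lamp3, Napsa, Lpcat1 and Slc34a2 kept their direction, and Sftpc turned with array weights (-0.15) and without control lung 1, with a range of -0.19 to 0.15 over the libraries left out in turn. Over the same libraries Sftpa1 ranged from 0.04 to 0.21, Sftpb from 0.14 to 0.38 and Slc34a2 from 0.03 to 0.25. The median difference of the 9 genes was 0.36 with quantile normalization. Rescaling each library to 1 sum without the 9 genes shifted the median of all genes to 0.15, and the other scalings moved it by less than 0.1. Median-of-ratios scaling could hardly change a lung value, because its factors for the lung libraries were 0.999 to 1.003. Of the 9 genes, 6 were called with array weights, 1 with all 18 libraries in 1 fit, and 0 to 1 when a library was left out, the 1 being Lamp3 without control lung 3. The causes of these differences were not tested.

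Genes called in the lung numbered 2 with no filter, 7137 with array weights, 535 with all 18 libraries in 1 fit and 1 to 3295 with a library left out, the highest without control lung 3. In the liver they were 0 with a pseudocount of 0.1, with no filter and with a replicate block, and 0 to 2834 with a library left out, the highest without control liver 2, against 2. In the intestine they were 3 with a replicate block and 2 to 28 with a library left out, the highest without control intestine 2, against 1. For lung minus liver they were 15 with a pseudocount of 0.1, 120 with no filter and 2 to 588 with a library left out, the highest without control lung 3 and then 533 without control liver 2, against 32. For lung minus intestine they were 29 with a pseudocount of 0.1, 402 with no filter, 44 with median-of-ratios scaling and 18 to 1035 with a library left out, the highest without control lung 3 and then 848 without H2 intestine 3, against 166.

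The replicate numbers gave no clear sign of pairing the lung libraries. Deviations of same-numbered libraries from their group means correlated at -0.0085, 0.12 and 0.0055. The 0.12 was the highest of all pairs, but not every library correlated best with its own number. Deviations from a mean of 3 libraries depend on each other, so these correlations cannot exclude a pairing. With the replicate block 1 gene was called in the lung and 0 of the 9. With 3 libraries a group, and depth known only as an estimate, differences of the size seen here were not called after adjustment over all genes, also where the interval left out 0.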
